A study of Mus musculus with 6 samples.

Results

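The BCL2 family genes described here are 10 rows of a table of 40202 genes, chosen by name: Mcl1, Bcl2, Bcl2l1, Bcl2a1b, Bcl2a1d, Bcl2l11, Bid, Bmf, Pmaip1 and Bak1. The table comes from total RNA sequencing of BV2 cells, a mouse microglial line of C57BL/6 background that was immortalised with oncogenes. A group of 3 samples, FL-ApoE4, was incubated with human full-length apolipoprotein E4 protein at 25 µg/ml for 5 h, and a group of 3 samples, Control, was untreated. The labels do not state whether Control cells received the protein's vehicle. The labels do not say that replicates were grown as separate cultures, so each p-value reflects sample-to-sample spread that may be only technical. In RNA from whole cultures, a change in cell make-up and a change in RNA per cell cannot be told apart.

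Proteins of the BCL2 family decide whether the outer mitochondrial membrane stays intact. Anti-apoptotic members (MCL-1 from Mcl1, BCL-2 from Bcl2, BCL-XL from Bcl2l1 and A1 from the Bcl2a1 genes) bind and restrain the pore-forming effectors BAK and BAX. BH3-only members (BIM from Bcl2l11, BID from Bid, BMF from Bmf and NOXA from Pmaip1) sense stress and either occupy the anti-apoptotic proteins or activate the effectors. A1 is a well known NF-kB target in myeloid cells. The 10 genes thus hold 5 that protect cells, 4 BH3-only genes that promote death and 1 effector, so the term survival genes fits only the first of these classes.

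Libraries held 45700128 to 54965393 reads assigned to genes in FL-ApoE4 and 48784016 to 54038912 in Control. Control replicate 1 stood apart, with a per-gene chi-square on recovered reads of 64.1 to Control replicate 2 and 71.9 to Control replicate 3. Control replicates 2 and 3 were at 4.85 to each other. Within FL-ApoE4 the values were 21.4 and 19.9 for replicate 1 against each of the others and 4.39 for the remaining pair. Fold changes below are from all 6 libraries unless a fit without Control replicate 1 is named. All 10 microglia and macrophage markers listed were expressed, with a summed level of 211145 to 218421 normalised reads in FL-ApoE4 and 187315 to 196024 in Control. The part of this shift in the results below was not tested. Of other cell types, endothelial markers (3 of 5 above a mean of 10) summed to 4023 to 4546 normalised reads in FL-ApoE4 and 3009 to 4772 in Control, and oligodendrocyte markers (3 of 6) to 1944 to 2152 in FL-ApoE4 and 1924 to 1948 in Control. Neuronal and astrocyte markers (2 of 7 and 2 of 6) summed to at most 80.7 and 97.9 in FL-ApoE4 and 74.9 and 130.3 in Control. Fibroblast markers summed to at most 6.69 normalised reads in FL-ApoE4 and 8.69 in Control. T and B cell markers summed to 12.3 to 17.6 in FL-ApoE4 and 10.4 to 15.2 in Control. Of these 6 markers, 1 (Cd79a) was above a mean of 10 and 3 (Cd3e, Cd3g and Ms4a1) were listed at 0 throughout.

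Of the 10 members, 8 passed the filter of a mean of at least 10 normalised reads, and Bak1 and Bcl2a1d were listed at 0 in all 6 libraries. BAK, the product of Bak1, is made by most cells, and B2m, which cells commonly express, was listed at 0 as well, so these zeros are reported only as listed. Of the exon bases of Bak1, 25.5% are also in exons of Ggnbp1 on the opposite strand in GENCODE M21, and how the counting treated strand is not given in the sources used here. What part this overlap has in the zeros was not tested. Among the other members, 6.09% of the exon bases of Bcl2 and 17.7% of those of Bid overlap exons on the opposite strand, which belong to D630008O14Rik and Bcl2l13. How far this overlap affects the values of Bcl2 and Bid was not tested, and the share of bases does not measure it.

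The Bcl2a1 genes are near-identical copies on mouse chromosome 9, and their sequences show how little separates them. The longest transcript of Bcl2a1b was 99.1% identical to that of Bcl2a1d over 817 aligned bases and 98.2% identical to that of Bcl2a1a. Of the 768 windows of 50 bases in the Bcl2a1b transcript, 608 (79.2%) also occurred in a transcript of another gene. The shares were 79.5% for Bcl2a1d and 69.0% for Bcl2a1a, against 0% to 0.221% for the longest transcripts of the other 8 members. The split of reads between the copies is therefore uncertain, and 49.1% of the exon bases of Bcl2a1b lie in same-strand exons of a neighbouring gene model, Gm29094. The windows from 250 bases before to 50 bases after each gene's start (RefSeq, build GRCm38.p6) are shown to let the copies be compared. They are chr9:89199023-89199322 (plus strand) for Bcl2a1b, chr9:88956670-88956969 (plus strand) for Bcl2a1a and chr9:88731801-88732100 (minus strand) for Bcl2a1d, each written 5′ to 3′ along the gene with matches to the motifs below in capitals.
Bcl2a1b: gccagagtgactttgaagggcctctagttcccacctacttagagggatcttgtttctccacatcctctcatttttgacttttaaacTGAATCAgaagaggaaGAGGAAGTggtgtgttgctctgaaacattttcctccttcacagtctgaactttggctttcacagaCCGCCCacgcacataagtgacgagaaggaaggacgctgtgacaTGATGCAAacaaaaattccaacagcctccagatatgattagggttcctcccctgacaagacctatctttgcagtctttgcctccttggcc
Bcl2a1a: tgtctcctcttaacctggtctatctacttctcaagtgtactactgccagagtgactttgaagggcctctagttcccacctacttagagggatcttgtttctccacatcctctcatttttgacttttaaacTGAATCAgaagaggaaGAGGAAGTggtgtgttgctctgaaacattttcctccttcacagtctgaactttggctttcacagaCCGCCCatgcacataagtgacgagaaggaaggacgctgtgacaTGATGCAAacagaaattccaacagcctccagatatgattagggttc
Bcl2a1d: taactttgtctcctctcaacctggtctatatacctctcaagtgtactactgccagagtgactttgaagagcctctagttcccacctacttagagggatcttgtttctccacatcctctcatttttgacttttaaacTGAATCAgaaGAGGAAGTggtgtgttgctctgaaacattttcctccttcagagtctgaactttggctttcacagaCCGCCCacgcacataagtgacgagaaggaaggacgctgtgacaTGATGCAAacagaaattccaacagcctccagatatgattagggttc
The windows of Bcl2a1b and Bcl2a1a were 99.2% identical over the 256 bases that they share, and those of Bcl2a1b and Bcl2a1d were 96.5% identical over 256.

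Motifs were searched on both strands of all 32851 RefSeq windows of 300 bases. They were GTAAACA (FOXO), TGACGTCA (CRE), TGACGT (the CRE core, which overlaps it), TGATGCAA (amino acid response), GGGA and TTCC separated by NN (NF-kB), TGANTCA (AP-1), GAGGAAGT (ETS), TTCNNNGAA (STAT), CACGTG (E-box) and GGGCGG (GC box). The windows of Bcl2a1a, Bcl2a1b, Bcl2a1c and Bcl2a1d each held TGATGCAA, found in 0.895% of all windows, and GAGGAAGT, found in 3.2%. TGANTCA, found in 7.81% of all windows, was in those of Bcl2a1a, Bcl2a1b and Bcl2a1d, each time with A at the open position (TGAATCA). These copies share their sequence, so the matches are not independent of each other, and a match is only a run of letters. The NF-kB letters, found in 1.47% of all windows, were in none of the member windows searched, which says nothing about the factor itself.

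Across the 8 measured members, 0 passed an adjusted p under 0.05 by limma over all 6 libraries, as did 0 of all 14079 genes tested (0% called in either direction, with 1850 genes, 13.1%, at an unadjusted p under 0.05). The edgeR quasi-likelihood test also called 0 genes, with 1844 at an unadjusted p under 0.05. Unadjusted limma p-values under 0.05 were obtained for 3 members, Bmf and Bcl2 with higher values and Pmaip1 with lower values in FL-ApoE4, where 6.81% of all genes were at such a p with higher and 6.33% with lower values. For these 3 genes every FL-ApoE4 library lay on one side of every Control library, as was so for 21.9% of all genes tested (11.1% higher and 10.9% lower). The median log2 fold change of the 8 members was 0.08, with a range of -0.18 to 1.01, beside 0.00 over all genes tested. The authors' deposited table gives an adjusted p under 0.05 to Bmf (0.000276) and Bcl2 (0.0118) among the members, both higher, where 2.85% of its genes with an adjusted p were called (1.51% higher and 1.33% lower). DESeq2 run on the recovered reads also called these 2 members (adjusted p = 0.000285 and 0.0121), with 2.91% of genes called (1.5% higher and 1.41% lower). The submitters' notes name DESeq2 too and the reads are the same, so these calls are not separate support for each other.

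By limma and edgeR the calls depended on Control replicate 1, whereas DESeq2 called Bmf and Bcl2 with and without it. Without that library, limma called 3 members higher (Bmf, Bcl2 and Bcl2a1b) and 0 lower, with 4.62% of all genes called (2.93% higher and 1.69% lower). The edgeR test without that library called 3 members, with 4.91% of genes called (3.01% higher and 1.9% lower). DESeq2 without it called 4 members, with 7.71% of genes called (4.36% higher and 3.34% lower). The fits without Control replicate 1 by edgeR and DESeq2 were chosen after seeing the data.

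**Figure D1:**
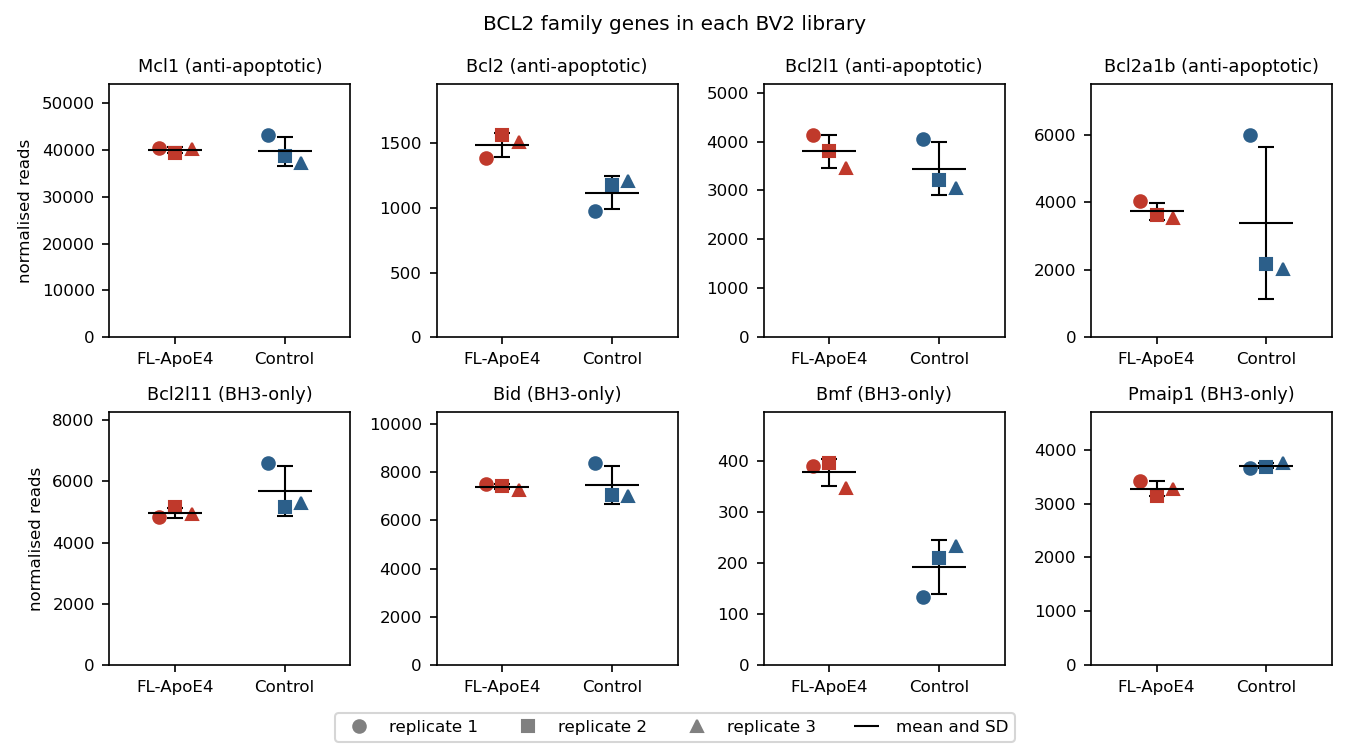
Normalised reads of the 8 measured BCL2 family genes in each library (y axis from 0, a panel per gene), FL-ApoE4 at left and Control at right. Circles, squares and triangles are replicates 1, 2 and 3, and horizontal lines with bars are the mean and SD (n = 3). The groups do not overlap for Bcl2, Bmf and Pmaip1, and Control replicate 1 is the highest Control library for 5 genes and the lowest for 3.

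Bmf, whose BH3-only product binds BCL-2 and is held at the cytoskeleton in healthy cells, had the largest fold change of the 8 with all libraries, and Bcl2a1b had the largest without Control replicate 1. It was at 389, 396 and 347 normalised reads in FL-ApoE4 replicates 1 to 3, against 132, 209 and 234 in Control replicates 1 to 3. All FL-ApoE4 libraries lay above all Control libraries, and Control replicate 1 was the lowest of the 6. The means were 377 ± 26.8 in FL-ApoE4 and 192 ± 52.7 in Control (SD, n = 3 each), 1.97 times as high with FL-ApoE4. The log2 fold change was 1.01 ± 0.20 (SE), with a 95% interval of 0.53 to 1.49 and a limma adjusted p of 0.136, rank 141 of 14079 genes by p. Without Control replicate 1 Bmf rose by 0.77 (95% interval 0.53 to 1.00, limma adjusted p = 0.00548), in a fit that called 2.93% of all genes higher. That fit keeps only the Control libraries that were most alike, which makes the Control spread small. The Bmf transcripts rested on few reads, between 349 and 427 in FL-ApoE4 and between 122 and 248 in Control, so counting error was larger for Bmf than for the other measured members.

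RefSeq lists several start windows for Bmf. The most upstream one is shown because Bmf had the lowest p of the members, and it lies at chr2:118549637-118549936 (GRCm38.p6, minus strand), with matches to the motifs above in capitals.
Bmf: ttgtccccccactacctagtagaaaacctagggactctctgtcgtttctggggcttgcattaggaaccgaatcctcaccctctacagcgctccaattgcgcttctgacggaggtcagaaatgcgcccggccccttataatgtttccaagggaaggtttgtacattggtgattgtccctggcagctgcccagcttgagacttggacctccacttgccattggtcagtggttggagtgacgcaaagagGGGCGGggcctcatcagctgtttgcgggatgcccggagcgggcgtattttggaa
Its only match was a GC box, which 35.7% of all windows hold, and the other windows of Bmf held none of the motifs. No GTAAACA was in the Bmf windows, whereas a Bcl2l11 window held one, as 3.65% of all windows did.

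The 3 genes outside the family whose values over the 6 libraries followed Bmf most closely were Rtn4rl1, Maf and Arhgap25, picked by the smallest root mean square difference of centred log2 values. Those differences were 0.111, 0.113 and 0.116, beside a root mean square deviation of 0.567 for Bmf itself. Maf, which encodes a macrophage transcription factor, was at 2416, 2421 and 2153 normalised reads in FL-ApoE4 and 925, 1580.2 and 1632 in Control. Maf shared with Bmf the low value in Control replicate 1 and the absence of overlap between groups. It was picked for likeness over these same libraries, so this sharing follows from the choice and is not a separate result.

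Bcl2, the founding anti-apoptotic gene of the family, was at 1387, 1563 and 1512 normalised reads in FL-ApoE4 replicates 1 to 3, against 973, 1173 and 1205 in Control replicates 1 to 3. The groups did not overlap, and Control replicate 1 was again the lowest library. The means were 1487 ± 90.8 in FL-ApoE4 and 1117 ± 126 in Control (SD, n = 3 each), and the log2 fold change was 0.42 ± 0.10 (SE), with a 95% interval of 0.19 to 0.64 and a limma adjusted p of 0.173. Without Control replicate 1, Bcl2 rose by 0.32 (95% interval 0.16 to 0.48, limma adjusted p = 0.0379). The start window of Bcl2, at chr1:106714241-106714540 (GRCm38.p6, minus strand), is shown beside that of Bmf because these were the members of lowest p.
Bcl2: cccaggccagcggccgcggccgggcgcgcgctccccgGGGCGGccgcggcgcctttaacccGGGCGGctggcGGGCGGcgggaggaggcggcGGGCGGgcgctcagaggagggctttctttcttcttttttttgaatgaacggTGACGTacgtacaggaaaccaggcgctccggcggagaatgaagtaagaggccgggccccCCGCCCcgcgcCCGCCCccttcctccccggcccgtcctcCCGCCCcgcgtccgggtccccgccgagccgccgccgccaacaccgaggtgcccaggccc
It held 7 GC boxes and the CRE core TGACGT, which 7.51% of all windows hold, and had a GC content of 76.0%, against 55.3% in the Bmf window. Apart from GC boxes, no searched motif was found in both.

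Mcl1, whose short-lived product binds BIM and NOXA, was at 40524, 39284 and 40311 normalised reads in FL-ApoE4 and 43197, 38687 and 37288 in Control. The FL-ApoE4 values lay inside the Control range. Its log2 fold change was 0.01 ± 0.06 (SE, limma adjusted p = 0.956), and its 95% interval of -0.13 to 0.16 bounds the difference at these libraries. It was 0.08 without Control replicate 1, and its sign was negative without Control replicate 2 or 3 (-0.0035 and -0.03). The genes whose values followed Mcl1 most closely were Dync1i2, Crcp and Lrif1, at root mean square differences of 0.0107, 0.0158 and 0.0171, beside 0.0656 for Mcl1 itself. Each of them, like Mcl1, had its highest value in Control replicate 1, which follows from how they were picked.

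Bcl2l1, which encodes the longer-lived BCL-XL, was at 4134, 3801 and 3460.2 normalised reads in FL-ApoE4 and 4062, 3206 and 3055 in Control. Control replicate 1 lay among the FL-ApoE4 libraries and the other Control libraries below them. The fitted log2 difference was 0.15 ± 0.12 (SE), with a limma adjusted p of 0.641. Without Control replicate 1 the value was 0.28 (95% interval 0.10 to 0.45), which missed the threshold by limma (adjusted p = 0.0827).

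Bcl2a1b, the copy of the A1 gene that took nearly all A1 reads, was at 4030.4, 3621 and 3539 normalised reads in FL-ApoE4, against 5996, 2179 and 2009 in Control. Control replicate 1 was the highest of the 6 libraries and Control replicates 2 and 3 were the lowest, with all FL-ApoE4 libraries between. The Control group therefore varied by 66.4% of its mean (coefficient of variation), against 7.06% in FL-ApoE4. The log2 fold change was 0.33 ± 0.38 (SE, limma adjusted p = 0.784), with a 95% interval of -0.55 to 1.20. Without Control replicate 1 Bcl2a1b rose by 0.83 (95% interval 0.67 to 0.99, limma adjusted p = 0.000999), whereas against Control replicate 1 alone the FL-ApoE4 mean was lower by 0.69 on the log2 scale. With any single library left out the log2 fold change was positive, between 0.04 and 0.83.

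Summing Bcl2a1a, Bcl2a1b, Bcl2a1c and Bcl2a1d, so that the split between these copies does not enter, gave 4111, 3696 and 3619 normalised reads in FL-ApoE4 and 6168, 2213 and 2052 in Control. Bcl2a1b made up 97.8% to 98.0% of this sum in FL-ApoE4 and 97.2% to 98.5% in Control. The summed A1 signal had a log2 fold change of 0.32 ± 0.38 (SE, limma adjusted p = 0.788) with all libraries, and it rose by 0.84 without Control replicate 1 (adjusted p = 0.000888). Bcl2a1a, which is outside the 10 members, was at 74.7, 67.7 and 75.4 normalised reads in FL-ApoE4 and 163, 28.5 and 42.4 in Control. Control replicate 1 was again on top and Control replicates 2 and 3 lowest. Bcl2a1a had a log2 fold change of 0.31 with all libraries and 1.04 without Control replicate 1 (limma adjusted p = 0.881 and 0.0297). Reads that the counting may have dropped as shared, between the copies or with Gm29094, would not be in the sum, and this was not tested.

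**Figure D2:**
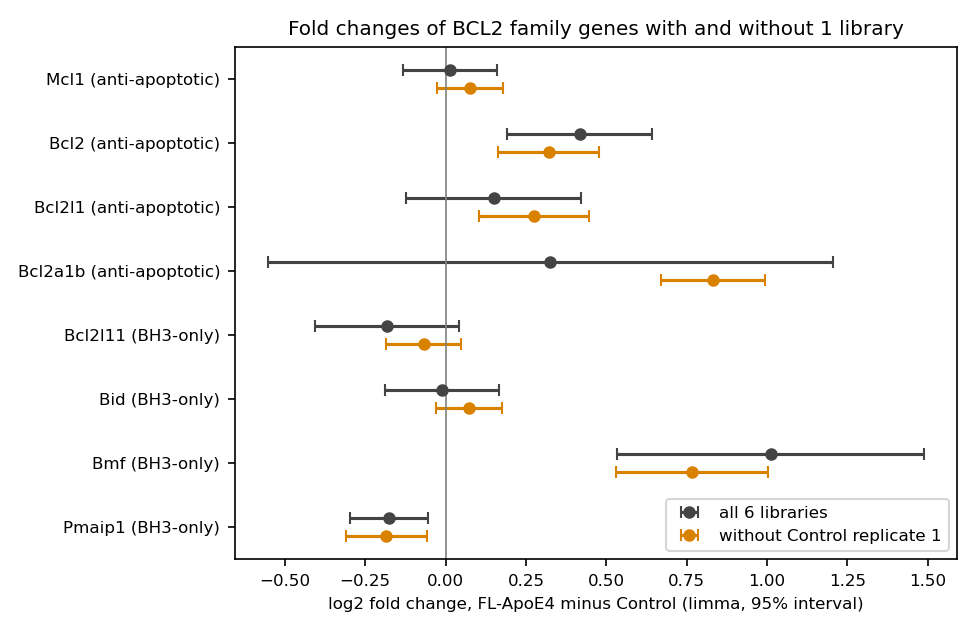
Log2 fold change of each measured BCL2 family gene, FL-ApoE4 minus Control, from limma on log2(value + 1), with its 95% interval, for all 6 libraries (grey) and without Control replicate 1 (orange). The interval of Bcl2a1b narrows from -0.55 to 1.20 with all libraries to 0.67 to 0.99 without that library, while Bmf and Bcl2 lie above 0 and Pmaip1 below 0 in both.

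Among the BH3-only genes, Pmaip1, whose product NOXA targets MCL-1 for degradation, was at 3420.2, 3144 and 3272 normalised reads in FL-ApoE4 and 3664, 3689 and 3759 in Control. All FL-ApoE4 libraries were below all Control libraries, and here Control replicate 1 was close to the other Control libraries. Its log2 fold change was -0.18 ± 0.05 (SE, 95% interval -0.30 to -0.05), with a limma adjusted p of 0.232. Without Control replicate 1 it was -0.18 and also missed the threshold (limma adjusted p = 0.107). The difference is small, with means of 3279 ± 138 in FL-ApoE4 and 3704 ± 49.0 in Control (SD, n = 3 each).

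Bcl2l11, which encodes the strong apoptosis inducer BIM, was at 4844, 5163 and 4929 normalised reads in FL-ApoE4 and 6606, 5146 and 5291 in Control. The groups overlapped through Control replicate 2, and Control replicate 1 was the highest library. The fitted log2 difference was -0.18 ± 0.10 (SE, limma adjusted p = 0.472) with all libraries and -0.07 without Control replicate 1 (95% interval -0.18 to 0.05).

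Bid, whose product links death receptors to mitochondria after cleavage by caspase 8, was at 7512, 7407 and 7279.7 normalised reads in FL-ApoE4 and 8391, 7061 and 7001 in Control. The FL-ApoE4 libraries again lay between Control replicate 1 and the other Control libraries. The log2 fold change was -0.01 ± 0.08 (SE, limma adjusted p = 0.972), with a 95% interval of -0.19 to 0.16, and it was 0.07 without Control replicate 1.

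The members differed in how Control replicate 1 departed from the mean of Control replicates 2 and 3. On the log2(value + 1) scale the departure was 1.52 for Bcl2a1b, 0.38 for Bcl2l1, 0.34 for Bcl2l11, 0.26 for Bid and 0.19 for Mcl1. It was -0.02 for Pmaip1, -0.29 for Bcl2 and -0.73 for Bmf. Thus 5 of the 8 measured members were higher in that library, and the genes with the highest fold changes over all 6 libraries, Bmf and Bcl2, were lower in it. For Bmf and Bcl2 FL-ApoE4 was also higher than Control replicate 1 alone, as in the fit without it.

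**Figure D3:**
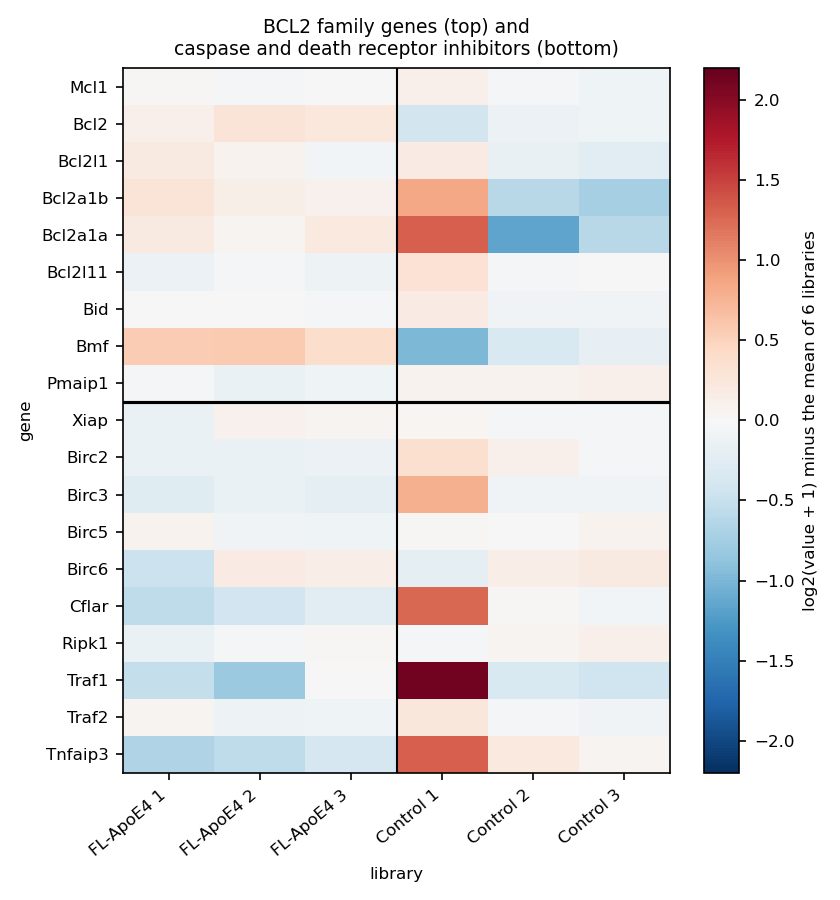
Heat map of log2(value + 1) minus the gene's mean over the 6 libraries (colour), for BCL2 family genes above the black line and caspase and death receptor inhibitors below it, with FL-ApoE4 libraries at left and Control libraries at right. Control replicate 1 is high for Bcl2a1b, Bcl2a1a, Birc3, Cflar, Traf1 and Tnfaip3 and low for Bmf and Bcl2.

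Levels were compared between genes only per length, as normalised reads per kilobase of the longest annotated transcript (GENCODE M21). On this scale Mcl1 was the most abundant member, at 11714 ± 194 in FL-ApoE4 and 11622 ± 903 in Control (SD, n = 3 each). Bcl2a1b followed at 4565 ± 322 in FL-ApoE4 and 4155 ± 2759 in Control, and Bid was at 3064 ± 48.1 in FL-ApoE4 and 3099 ± 325 in Control. In Control the ranges of Bcl2a1b and Bid overlapped, so their order is not set there. Bcl2l1 (1479 ± 131 in FL-ApoE4 and 1340 ± 211 in Control), Pmaip1 (1202 ± 50.7 in FL-ApoE4 and 1358 ± 17.98 in Control) and Bcl2l11 (989 ± 32.8 in FL-ApoE4 and 1128 ± 160 in Control) came next. Bcl2l1 lay above Pmaip1 in FL-ApoE4, and their ranges overlapped in Control.

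The members of lowest level per length were Bcl2, at 207 ± 12.6 per kilobase in FL-ApoE4 and 155 ± 17.5 in Control, and Bmf, at 81.3 ± 5.77 in FL-ApoE4 and 41.3 ± 11.4 in Control. The genes of lowest p were thus the scarcest of the measured members. Mcl1 made up 49.4% to 51.4% of the summed per-kilobase level of the 8 members in FL-ApoE4 and 45.4% to 54.6% in Control, with the lowest share in Control replicate 1. Bcl2a1b made up 18.9% to 20.6% in FL-ApoE4, against 26.3% in Control replicate 1 and 12.9% and 12.2% in Control replicates 2 and 3. Bmf made up 0.325% to 0.372% in FL-ApoE4 and 0.102% to 0.250% in Control. With the median transcript length in place of the longest, Bid (13143 per kilobase in FL-ApoE4) came second to Mcl1 (18728). Bmf (586) then came above Bcl2 (297). The shares moved as well. With the median length, Mcl1 made up 42.23% to 43.61% in FL-ApoE4, Bcl2a1b 10.02% to 10.99% and Bmf 1.246% to 1.415%. These ranks and shares therefore depend on which transcripts the cells make.

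**Figure D4:**
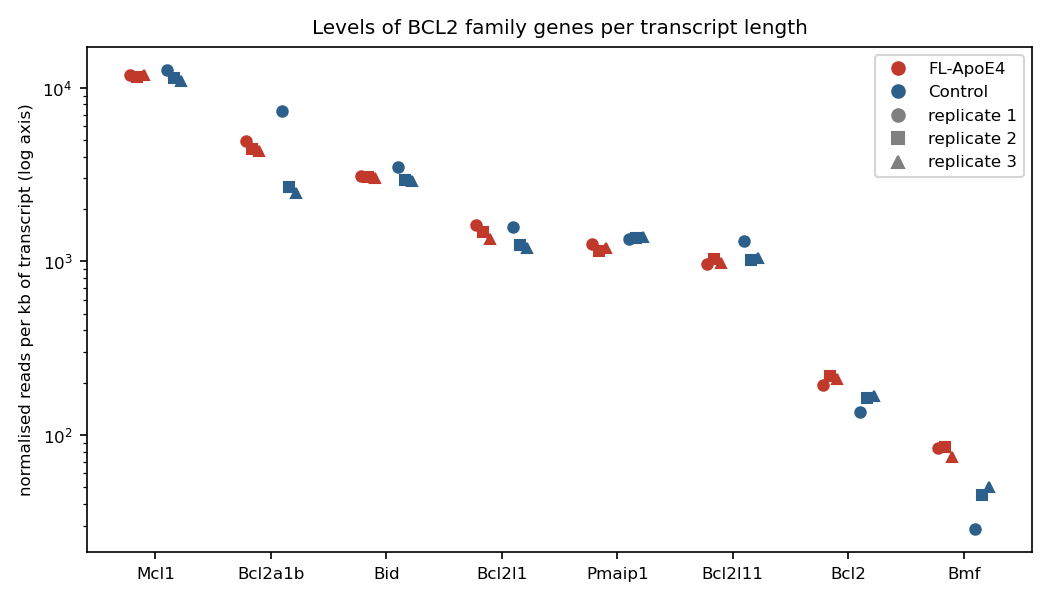
Normalised reads per kilobase of the longest annotated transcript (log axis) for the 8 measured members, ordered by their FL-ApoE4 mean, with FL-ApoE4 in red at left and Control in blue at right. Circles, squares and triangles are replicates 1, 2 and 3. Mcl1 is near 11714 and Bmf near 81.3 in FL-ApoE4, and Bcl2a1b has the widest Control spread.

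The rest of the mitochondrial apoptosis pathway was followed in 6 lists of 71 genes, chosen by function, of which 65 passed the filter. By limma 0 of the 65 were called over all 6 libraries (0% of all genes were), and 9 had an unadjusted p under 0.05, as did 13.1% of all genes. Without Control replicate 1, 3 were called higher (Bcl2a1a, Nfkb1 and Spi1) and 4 lower (Atf4, Tnfaip3, Cflar and Fbxw7), where limma called 2.93% of all genes higher and 1.69% lower. Nfkb1 had a log2 fold change of -0.07 with all libraries and 0.26 without that one (limma adjusted p = 0.941 and 0.0180). The values for Spi1 were 0.20 and 0.38 (limma adjusted p = 0.592 and 0.0124).

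Among the 11 other BCL2 family members tested, 7 log2 fold changes were positive and 4 negative, with a median of 0.01 and 0 called by limma or edgeR. Those of lowest p were Bik (0.64 ± 0.24, SE), Bbc3 (-0.27 ± 0.13) and Hrk (-0.43 ± 0.25), all BH3-only genes, with limma adjusted p-values of 0.321, 0.437 and 0.518. Bik, a BH3-only gene like Bmf, was low, at 41.3, 28.7 and 38.2 normalised reads in FL-ApoE4 and 26.1, 24.7 and 17.9 in Control. The effector gene Bax, which acts in parallel with Bak1, was at 7620.1, 6644 and 6909.7 normalised reads in FL-ApoE4 and 7306, 6872 and 6779 in Control, with overlapping groups.

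Genes of the apoptosome, caspases and released mitochondrial proteins had a median log2 fold change of -0.0039 over 14 genes, 7 positive and 7 negative. Apaf1, the scaffold that activates caspase 9, had the lowest p, with a log2 fold change of -0.20 ± 0.07 (SE, limma adjusted p = 0.282). Casp9, which encodes the initiator caspase of the apoptosome, had a log2 fold change of 0.28 ± 0.16 (SE, limma adjusted p = 0.511), which was 0.07 without Control replicate 1. The 8 mitochondrial channel and fission genes lay between -0.04 and 0.10. In that list Oma1, a mitochondrial protease, Vdac2, an outer membrane channel that holds BAK, and Dnm1l, the fission GTPase, had the lowest p, with limma adjusted p-values of 0.546, 0.818 and 0.819.

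Caspase and death receptor inhibitors had the lowest median of the 6 lists, -0.19 over 10 genes, beside 0.00 over all genes tested. Of them 9 were negative and 1 positive, where 6994 of all 14079 genes were negative. The list median was -0.14 without Control replicate 1. That library exceeded the other Control libraries by a median of 0.31 (log2) in this list, beside -0.003 over all genes. Tnfaip3, which encodes the ubiquitin-editing NF-kB brake A20, was at 3715, 3981 and 4518 normalised reads in FL-ApoE4 and 14554, 6757 and 6126 in Control. Its groups did not overlap, and Control replicate 1 was the highest library. Its log2 fold change was -1.06 ± 0.30 (SE, limma adjusted p = 0.219), and without Control replicate 1 Tnfaip3 fell by 0.66 (adjusted p = 0.00396). Cflar, the inhibitor of caspase 8 activation, was at 3584, 3968 and 4455 in FL-ApoE4 and 12735, 5382 and 5067 in Control. Its log2 fold change was -0.82 ± 0.32 with all libraries (SE, limma adjusted p = 0.343), and without Control replicate 1 Cflar fell by 0.39 (limma adjusted p = 0.0396). Birc2, which encodes a ubiquitin ligase of the TNF receptor complex, had a log2 fold change of -0.28 ± 0.10 with all libraries and -0.17 without that one.

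Like Bcl2a1b, Tnfaip3 and Cflar were highest in Control replicate 1, by 1.18 and 1.29 (log2) over the other Control libraries, and all of these genes are known NF-kB targets. The FL-ApoE4 libraries, in contrast, lay above Control replicates 2 and 3 for Bcl2a1b and below them for Tnfaip3 and Cflar. Nfkb1, which encodes the p105 and p50 subunit, went with Bcl2a1b in this respect, at 17061, 17821 and 18074 normalised reads in FL-ApoE4 and 29562, 14484 and 14900.0 in Control. Rela, which encodes the p65 subunit, had a log2 fold change of -0.33 ± 0.13 (SE, limma adjusted p = 0.346) with all libraries and -0.16 without Control replicate 1 (adjusted p = 0.114).

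Among regulators of MCL-1 and BIM protein, Fbxw7, part of a ubiquitin ligase for MCL-1, was at 741, 765 and 769 normalised reads in FL-ApoE4 and 975, 953 and 922 in Control. Its groups did not overlap and Control replicate 1 lay close to the others. The fitted log2 difference was -0.33 ± 0.06 (SE, limma adjusted p = 0.130), and without Control replicate 1 Fbxw7 fell by 0.31 (adjusted p = 0.0373). Trim2 (0.37 ± 0.13) and Trim17 (0.10 ± 0.10), also ubiquitin ligases, missed the threshold by limma (adjusted p = 0.306 and 0.757), and Trim2 was at 0.21 without Control replicate 1 (adjusted p = 0.143).

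Of the 15 transcription factors tested, Atf4, which drives the amino acid response and is known to act on Pmaip1, was at 18629, 16714 and 18796 normalised reads in FL-ApoE4 and 24607, 24747 and 24368 in Control. The groups did not overlap, and Control replicate 1 lay between the other Control libraries. The log2 fold change was -0.45 ± 0.06 (SE, limma adjusted p = 0.0806), and without Control replicate 1 Atf4 fell by 0.45 (adjusted p = 0.00511). Foxo3, known to activate Bcl2l11 and Bmf in several cell types, had a log2 fold change of 0.28 ± 0.13 with all libraries and 0.14 without Control replicate 1, with limma adjusted p-values of 0.424 and 0.409. Trp53, which encodes p53, an activator of Pmaip1 and Bbc3, was at 16223, 15074 and 15482 normalised reads in FL-ApoE4 and 17066, 14698 and 15145 in Control, with overlapping groups.

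**Figure D5:**
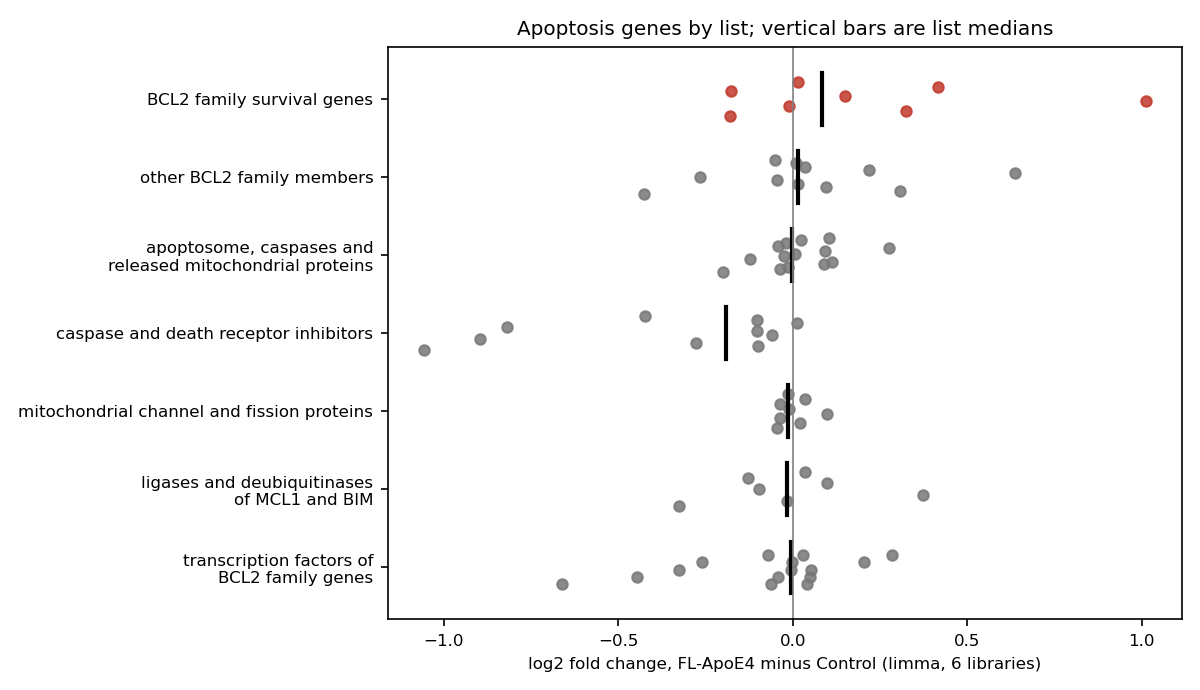
Log2 fold change (x axis, FL-ApoE4 minus Control, limma on 6 libraries) of the 8 measured BCL2 family survival genes in red and of the genes tested in 6 apoptosis lists in grey, with a point per gene and a bar at each list's median. The medians are 0.08 for the BCL2 family survival genes and -0.19 for the caspase and death receptor inhibitors, and those of the other lists lie between -0.02 and 0.01.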

How the data were processed

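Total RNA of 6 BV2 samples was sequenced from a directional library kit, per the labels' protocols. The submitters' processing notes name DESeq2 1.30.1, HTSeq, HISAT2 2.2.1 and FastQC 0.11.8 and the build GRCm39, without roles, order or settings. The authors deposited a normalised signal per gene and library, which was a whole multiple of the column's smallest value for 100% of values (tolerance 0.01), so whole reads were recovered by division. The authors' deposited statistics table (log2 fold changes, a score per gene as test statistic, p-values and adjusted p-values) was used only to give the authors' own calls.

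Values were tested on log2(value + 1), two-sided, by limma 3.58.1 (R 4.3.3, variance prior fitted as a trend), over the 14079 genes with a mean of at least 10, and p-values were adjusted by Benjamini-Hochberg, called under 0.05. Such fold changes understate those of low genes. Alternatives were edgeR 4.0.16 and DESeq2 1.42.0 on recovered reads (2 of these, without Control replicate 1, were added after seeing the data), other pseudocounts, filters, scalings and variance settings, a block for the replicate number and leaving out single libraries. The tests were tried on simulated counts with the same dispersion for all genes and no library set apart. That trial does not show how they behave with a library like Control replicate 1. Transcript lengths came from GENCODE M21 and start windows from RefSeq, both of GRCm38, so coordinates are not in the authors' build. No start window of Pmaip1 was used here. Named genes were the members, the 3 genes of lowest p and any called gene in each list, and the 3 genes most like the member of lowest p and the most abundant member. Bax, Bcl2a1a, Trp53, Nfkb1, Spi1, Traf1, Birc3, Birc5, Birc6 and Ripk1 were picked for mention once values had been seen. A further gene that the rule names is not reported here. The members, lists and rules were chosen with earlier results of these data known.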

Additional observations from a re-analysis of the deposited data

How the results depend on the processing

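Over all 14079 genes tested, the count called was 0. With array quality weights, which gave Control replicate 1 the lowest weight (0.197), it was 1551 of 14079 (886 higher and 665 lower). It was 370 with DESeq2 (2.91% of genes with an adjusted p). Without Control replicate 1 it was 691 with edgeR (4.91%) and 959 with DESeq2 (7.71%). With no filter beyond a mean above 0 it was 1 of 24244. Leaving out single libraries gave 0 to 651 genes, 0 to 3 of the 8 measured members and 0 to 7 of the 65 other apoptosis genes, the highest each time without Control replicate 1. Among members the count was 4 with array quality weights (Bmf, Bcl2 and Bcl2a1b higher, Pmaip1 lower), 2 with DESeq2, 3 and 4 with edgeR and DESeq2 without Control replicate 1, the last adding Bcl2l1 (adjusted p = 0.0243). Among the 65 other apoptosis genes it was 9, 2, 7 and 8 in the same settings. The counts over all genes given above are the background for both. The cause was not tested.

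Bmf and Bcl2 were positive in all 20 alternatives (0.77 to 1.17 and 0.32 to 0.47) and called in 5 each, and Bcl2a1b was positive in all 21 (0.04 to 0.84) and called in 4. Pmaip1 was negative in all 20 (-0.21 to -0.15) and called in 1. All alternatives use the same libraries, and several change only the filter or the variance and leave the fold change as it was. The groups of Bmf, Bcl2 and Pmaip1 do not overlap, so leaving out a library could not change their sign. Their constant signs are therefore not further evidence of a difference. Bid changed sign with quantile normalisation (0.0055), array quality weights (0.053), without Control replicate 1 (0.074 by limma, 0.077 by edgeR and 0.071 by DESeq2) and without FL-ApoE4 replicate 3 (0.00033). Mcl1 did so without Control replicates 2 and 3 (-0.0035 and -0.030). Leaving out single libraries, Bid ranged over -0.057 to 0.074 and Mcl1 over -0.030 to 0.076. With a replicate block 0 genes, 0 members and 0 other apoptosis genes were called. Same-numbered libraries did not deviate together in every case (r of 0.13, 0.07 and -0.03 across genes). The highest r was between libraries of different number, FL-ApoE4 replicate 2 and Control replicate 3 (0.165). With 3 libraries per group and Control replicate 1 apart, these values cannot tell whether the numbers pair the samples. Among the measured members, depth limits Bmf most, at 122 reads in its lowest library.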
